A study of Mus musculus with 8 samples.

Results

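The expression of 10 genes of bile acid synthesis, conjugation, transport and FXR signalling was examined in livers in which the splicing factor gene *Rbfox2* is deleted in hepatocytes. *Cyp7a1*, *Cyp8b1*, *Cyp27a1*, *Cyp7b1*, *Slc27a5*, *Baat*, *Abcb11*, *Slc10a1*, *Nr1h4* and *Nr0b2* were taken by their GRCm38 symbol from the 46078 gene identifiers counted, and all 10 were found and passed the filter on low counts, which kept 13856 genes. RNA-seq of poly(A)-enriched RNA was performed on whole livers of 4 wild-type (LWT) and 4 *Rbfox2* knockout (LΔRbfox2) mice, with 1 library per liver, to ask which transcripts depend on this splicing factor. Mice of both genotypes carried LoxP sites in both *Rbfox2* alleles. The LΔRbfox2 mice also carried Cre recombinase under the albumin promoter, which the study used to delete *Rbfox2* selectively in hepatocytes. Whether *Rbfox2* was intact in the other cells of the liver was not tested. All mice ate the control chow diet and were fasted for 16 h before the livers were taken. By the sample labels they had been on the diet for 12 weeks. The methods of the study give 16 to 22 weeks from 8 weeks of age, and male mice unless stated otherwise. The total counts were 37482458, 44953789, 43531897 and 38607789 in LWT replicates 1, 2, 3 and 4, and 39519303, 56177588, 47506181 and 41646283 in LΔRbfox2 replicates 1, 2, 3 and 4. Each member had between 416 and 49416 counts in a liver, so counting error is small beside the spread between animals.

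Bile acids are made from cholesterol in hepatocytes, and their synthesis is a main route by which the body disposes of cholesterol. The classical route starts with 7α-hydroxylation by CYP7A1, the rate-limiting step, and CYP8B1 then adds the 12α-hydroxyl group that makes cholic acid. The alternative route starts with side-chain oxidation by the mitochondrial CYP27A1, followed by CYP7B1. The enzymes SLC27A5 and BAAT activate bile acids with coenzyme A and join them to taurine or glycine, ABCB11 (the bile salt export pump) moves the conjugates into bile, and SLC10A1 (NTCP) takes them back up from blood. Bile acids bind the nuclear receptor FXR, encoded by *Nr1h4*, which induces *Abcb11* and *Nr0b2*, and the *Nr0b2* product SHP represses *Cyp7a1* and *Cyp8b1*.

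The promoters of *Abcb11*, *Nr0b2* and *Cyp8b1* are shown because these genes stand at the output of FXR, at SHP and downstream of SHP. Promoter sequences from RefSeq (GRCm38.p6), from 250 bases before to 50 bases after each start, were matched for 6 of the 10 genes. *Cyp7a1*, *Cyp7b1*, *Baat* and *Slc27a5* had no entry. Both strands were searched for an inverted repeat of AGGTCA with 1 base between its arms (IR-1, the kind of element that FXR binds) with at most 1 mismatch, for CAAGGCCA (of the kind bound by LRH-1), for CAAAGTCCA (of the kind bound by HNF4A) and for TATAAA, and no 2 matches overlapped in these promoters. Capitals mark the matches.
Abcb11 (chr2:69342567-69342866, minus strand): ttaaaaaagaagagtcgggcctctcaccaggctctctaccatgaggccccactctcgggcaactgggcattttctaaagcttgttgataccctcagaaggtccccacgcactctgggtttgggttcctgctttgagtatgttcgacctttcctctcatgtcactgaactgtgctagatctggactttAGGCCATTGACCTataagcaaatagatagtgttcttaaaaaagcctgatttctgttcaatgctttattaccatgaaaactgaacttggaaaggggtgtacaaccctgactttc
Nr0b2 (chr4:133553126-133553425, plus strand): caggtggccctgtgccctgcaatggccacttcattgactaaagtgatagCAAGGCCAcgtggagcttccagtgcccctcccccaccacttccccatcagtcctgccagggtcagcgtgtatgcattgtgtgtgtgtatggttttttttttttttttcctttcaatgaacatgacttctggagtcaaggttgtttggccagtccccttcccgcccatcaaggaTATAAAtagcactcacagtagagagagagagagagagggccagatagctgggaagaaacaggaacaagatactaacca
Cyp8b1 (chr9:121916256-121916555, minus strand): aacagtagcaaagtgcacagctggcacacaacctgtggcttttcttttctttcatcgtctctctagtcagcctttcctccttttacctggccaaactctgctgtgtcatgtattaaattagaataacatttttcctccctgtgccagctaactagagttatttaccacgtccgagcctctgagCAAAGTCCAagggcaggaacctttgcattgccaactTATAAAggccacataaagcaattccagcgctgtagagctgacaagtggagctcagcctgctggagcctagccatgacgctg
The *Abcb11* promoter held an IR-1 that begins 63 bases before the start and carries the substitution T4C, counted from 1 at the 5′ end of the repeat. Of all 32851 promoters in the table, 0.0822% (27) held an IR-1 with at most 1 mismatch. In *Nr0b2* the match to CAAGGCCA began 201 bases before the start and the TATAAA 28 bases before it. In *Cyp8b1* the match to CAAAGTCCA began 67 bases before the start and the TATAAA 31 bases before it. These motifs occurred in 2.40% (CAAGGCCA), 0.475% (CAAAGTCCA) and 13.6% (TATAAA) of all promoters. Among the 48 bile acid genes searched, of which 38 had a promoter in the table, *Slco1b2*, a basolateral uptake transporter, was the other gene with an IR-1 match, with the substitution T4A and beginning 88 bases before the start. A match describes the letters of the window and was not tested for binding. An element more than 250 bases before the start would not be found, so a gene without a match here may still have one.

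*Rbfox2* mRNA, the check of the labels, was at 17.1, 10.4, 11.4 and 18.3 CPM (counts scaled to library size with TMM factors) in LWT replicates 1 to 4 and at 4.61, 6.09, 2.24 and 3.19 CPM in LΔRbfox2 replicates 1 to 4. Every LΔRbfox2 liver lay under every LWT liver. An exact permutation test (two-sided, log2 CPM) gave *P* = 0.0286, and no assignment of 8 livers to the genotypes can give less. In edgeR the log2 fold change of *Rbfox2* was −1.82 (adjusted *P* = 0.504), so the deleted gene itself did not reach the threshold of 0.05 that is applied below to the bile acid genes. The libraries themselves differed in composition: the TMM factors of LΔRbfox2 replicates 3 and 4 were 0.724 and 0.776, while those of the other 6 lay between 1.02 and 1.14. The other 6 were not alike either: on the first principal component of log2 CPM (54.1% of the variance), LWT replicates 1 and 4 and LΔRbfox2 replicate 2 lay on one side, at −59.4, −54.6 and −35.9, and the other 5 livers on the other, at 3.97 to 56.0. The *Mup* genes, which encode major urinary proteins, took 43.6% and 37.5% of the counts in LΔRbfox2 replicates 3 and 4. They took 37.1% in LWT replicate 1 and between 21.4% and 29.1% in the other 5 livers. Results are therefore also given without LΔRbfox2 replicates 3 and 4, a comparison chosen after seeing the data.

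No bile acid gene passed the test across all genes. Tested by quasi-likelihood in edgeR, with *P* adjusted by Benjamini and Hochberg's method over all genes, 0 of the 10 had an adjusted *P* of at most 0.05, against 0% (0 genes) of the 13856 tested. By DESeq2 10 genes of the whole table and by limma-voom 0 reached this threshold, and 0 of the 10 bile acid genes were among them. At an unadjusted *P* under 0.05 there were 0 of the 10 in edgeR, where 9.79% of all genes (1356) were at this level, 7.95% (1102) higher and 1.83% (254) lower in LΔRbfox2 livers. With upper-quartile factors in place of TMM these were 829 higher and 338 lower, and without LΔRbfox2 replicates 3 and 4 they were 82 higher and 89 lower. Leaving out 1 liver moved the number in both directions, up to 3475 (2344 higher and 1131 lower) without LΔRbfox2 replicate 2 and 2531 without LWT replicate 2, and down to 404 without LΔRbfox2 replicate 4, 505 without LWT replicate 4, 550 without LΔRbfox2 replicate 3, 608 without LWT replicate 1 and 852 without LWT replicate 3. The genotypes did not overlap in 0 of the 10, against 2.28% (316) of all genes. Of the 10, 6 had a positive and 4 a negative log2 fold change (LΔRbfox2 over LWT), with a median of 0.081 beside −0.015 over all genes; the sign of *Slc27a5* turned with upper-quartile factors, with a correction for gene length and GC content, without a filter on low counts and without LΔRbfox2 replicates 3 and 4, and that of *Baat* turned with the length and GC correction and without those 2 livers. The count was thus 4 positive and 6 negative after the length and GC correction (median −0.044) and without LΔRbfox2 replicates 3 and 4 (median −0.022), and 5 and 5 without LΔRbfox2 replicate 2 (median −0.011) or replicate 3 (median −0.041). It was also 5 and 5 with upper-quartile factors, without a filter on low counts and without LWT replicate 4, and 7 positive and 3 negative without LWT replicate 2, LWT replicate 3 or LΔRbfox2 replicate 4 (medians 0.097, 0.069 and 0.13). A *P* that misses the threshold does not show that the genotypes were equal, so the interval of each difference is given below. Intervals are 95% confidence intervals from limma-voom, which is centred on its own estimate.

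**Figure D1:**
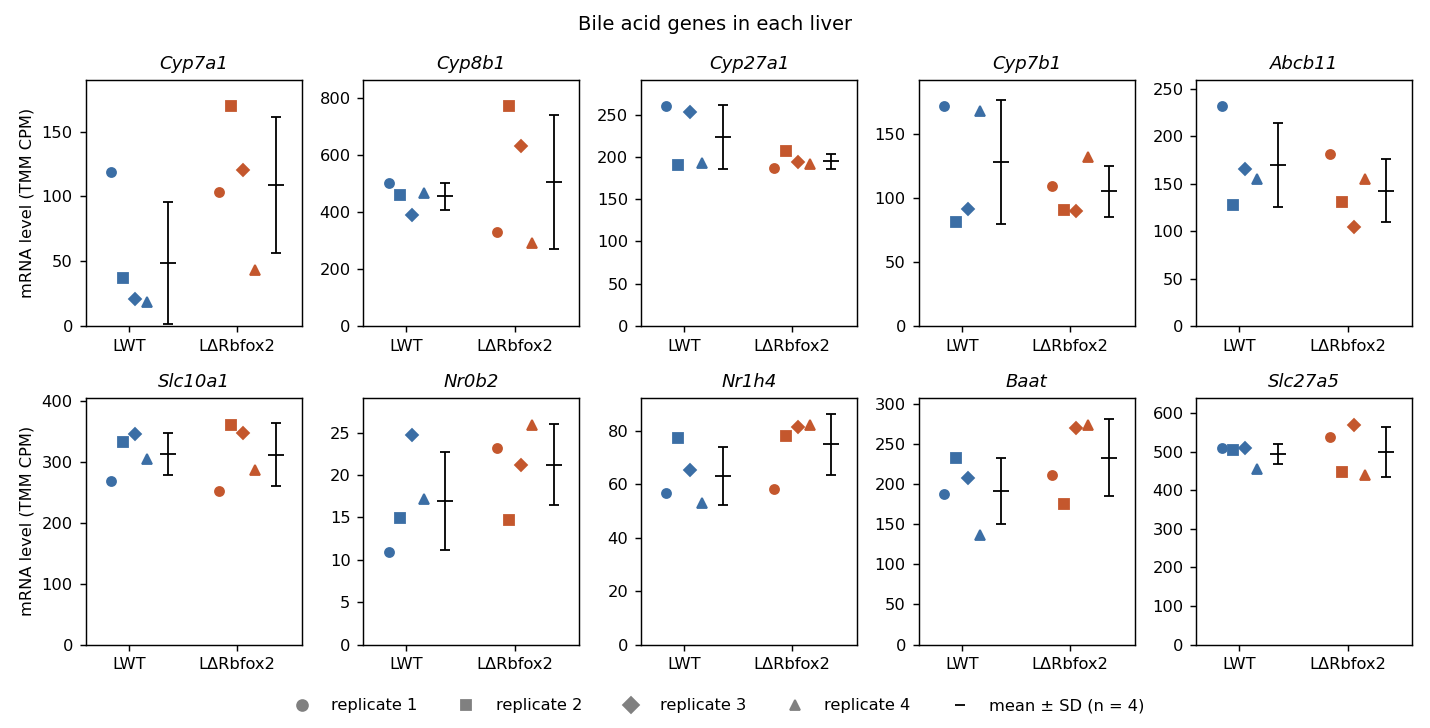
Level of each bile acid gene (TMM CPM, vertical axis from 0) in the 4 LWT (blue) and 4 LΔRbfox2 (orange) livers, with the symbol giving the replicate and the black mark the mean ± SD. For *Cyp7a1*, 3 LWT livers sit at or under 36.7 CPM and LWT replicate 1 at 119 CPM, among the LΔRbfox2 livers. The genotypes overlap in every panel.

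*Cyp7a1* (ENSMUSG00000028240, chr4:6265612-6275633, minus strand), the rate-limiting enzyme, had the largest difference of the 10. It was at 119, 36.7, 20.5 and 18.8 CPM in LWT replicates 1 to 4, and at 103, 169.7, 120.1 and 42.9 CPM in LΔRbfox2 replicates 1 to 4. All 4 LΔRbfox2 livers were thus above the 3 lower LWT livers, while LWT replicate 1 was higher than 2 of the 4 LΔRbfox2 livers. The mean was 48.7 ± 47.4 CPM (SD, n = 4) in LWT and 109 ± 52.3 CPM (SD, n = 4) in LΔRbfox2 livers, which is 224% of the LWT mean. The fitted difference was 2.24-fold, a log2 fold change of 1.16 (edgeR, adjusted *P* = 0.525). Of all genes tested, 2.04% had a log2 fold change of at least this size in either direction. For the difference in log2 CPM, the exact permutation test gave *P* = 0.0857, and edgeR's unadjusted *P* was 0.0829.

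The value depended on which livers and which test were used. In limma-voom the log2 fold change was 1.43 (SE 0.59), with an interval from 0.10 to 2.75, an unadjusted *P* of 0.0370 and an adjusted *P* of 0.634, and in DESeq2 the unadjusted and adjusted *P* were 0.0446 and 0.406. Without LWT replicate 1, the log2 fold change was 2.09 (edgeR, unadjusted *P* = 0.00112, adjusted *P* = 0.851). Without LΔRbfox2 replicates 3 and 4 it was 1.48 (edgeR, unadjusted *P* = 0.0599). In the other direction, it was 0.97 after the correction for gene length and GC content (unadjusted *P* = 0.166), 0.87 without LΔRbfox2 replicate 2 (0.197), 0.90 without LWT replicate 4 (0.172) and 0.91 without LWT replicate 3 (0.175). *Cyp7a1* is under strong control by feeding state and time of day. Its SD of log2 CPM within genotypes was 1.05, at or above that of 97.2% of the genes tested, and the highest of the 8 livers was 9.02-fold over the lowest. In bulk tissue, a change in the number of cells and a change of RNA per cell cannot be told apart.

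*Cyp8b1* (ENSMUSG00000050445, chr9:121914356-121916305, minus strand), the 12α-hydroxylase, shared its 2 highest livers with *Cyp7a1*, LΔRbfox2 replicates 2 and 3, and differed from it in the order of the others. It was at 503, 460.5, 391 and 468 CPM in LWT replicates 1 to 4 and at 329, 772, 629.9 and 291 CPM in LΔRbfox2 replicates 1 to 4. The LWT livers lay close together and the LΔRbfox2 livers lay on both sides of them, with replicates 2 and 3 above and replicates 1 and 4 below every LWT liver. The means were 456 ± 46.9 and 505 ± 233 CPM (SD, n = 4 each). Their log2 fold change was 0.15 (edgeR, adjusted *P* = 0.8294), with an interval from −0.66 to 0.71, and was −0.13 without LΔRbfox2 replicate 2 and 0.34 without LΔRbfox2 replicate 4. Within genotypes the SD of log2 CPM was 0.15 in LWT and 0.69 in LΔRbfox2 livers; a difference in spread was not tested.

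The enzymes of the alternative route had smaller fitted differences than *Cyp7a1*. *Cyp27a1* (ENSMUSG00000026170, chr1:74713574-74737892, plus strand), the sterol 27-hydroxylase, was at 260.0, 190.2, 253 and 193 CPM in LWT replicates 1 to 4 and between 186 and 207 CPM in the LΔRbfox2 livers. Replicates 1 and 3 of LWT were above the range of the LΔRbfox2 livers and the other 2 inside it. For *Cyp27a1* the log2 fold change was −0.20 (edgeR, adjusted *P* = 0.625), with an interval from −0.56 to 0.19, and was −0.13 without LWT replicate 3. *Cyp7b1* (ENSMUSG00000039519, chr3:18071950-18243338, minus strand), the oxysterol 7α-hydroxylase, was at 172, 81.6, 91.8 and 168 CPM in LWT replicates 1 to 4 and between 89.6 and 132 CPM in LΔRbfox2 livers. LWT replicates 1 and 4 were above the LΔRbfox2 range, replicate 2 was under it and replicate 3 inside it. For *Cyp7b1* the log2 fold change was −0.28 (edgeR, adjusted *P* = 0.657), with an interval from −0.84 to 0.39, and −0.72 after the correction for gene length and GC content. It was −0.14 without LWT replicate 1, −0.13 without LWT replicate 4 and −0.44 without LWT replicate 2.

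Within each liver the ratio of *Cyp8b1* to *Cyp7a1*, both per exon length, describes the 12α-hydroxylase against the entry step. On the log2 scale it was 3.18, 4.75, 5.35 and 5.73 in LWT replicates 1 to 4 and 2.77, 3.28, 3.49 and 3.86 in LΔRbfox2 replicates 1 to 4. LWT replicate 1 lay within the LΔRbfox2 range and the other LWT livers above it. The log2 ratio of *Cyp7b1* to *Cyp7a1* was 1.48, 2.10, 3.11 and 4.11 in LWT and 1.03, 0.040, 0.52 and 2.57 in LΔRbfox2 livers, in the same order. Both ratios share *Cyp7a1* as their denominator, were not tested, and are not independent of its values.

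**Figure D2:**
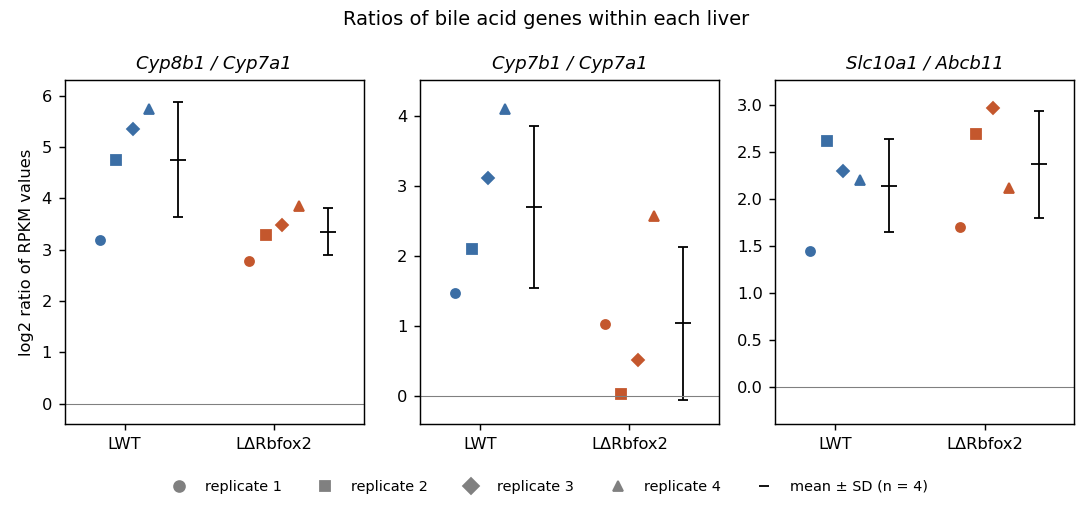
Log2 ratio of RPKM values within each liver for *Cyp8b1* over *Cyp7a1*, *Cyp7b1* over *Cyp7a1* and *Slc10a1* over *Abcb11*, with symbols for replicates and the mean ± SD of 4 livers; the grey line marks equal levels. The ratio of *Cyp8b1* to *Cyp7a1* spans 3.18 to 5.73 in LWT and 2.77 to 3.86 in LΔRbfox2 livers, and the genotypes overlap in each panel.

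Both conjugating enzymes overlapped between the genotypes. *Slc27a5* (ENSMUSG00000030382, chr7:12988346-12998192, minus strand), the bile acid coenzyme A ligase, was at 509, 504, 508 and 454 CPM in LWT replicates 1 to 4 and between 439.5 and 569.8 CPM in LΔRbfox2 livers. LWT replicates 1, 2 and 3 were nearly equal, and the LΔRbfox2 livers lay above and below them. Its log2 fold change was 0.012 (edgeR, adjusted *P* = 0.975), with an interval from −0.35 to 0.36. It was among the steadiest genes measured, with an SD of log2 CPM within genotypes of 0.14, at or above that of 5.08% of the genes tested. *Baat* (ENSMUSG00000039653, chr4:49489422-49506557, minus strand), the amino acid N-acyltransferase, was at 188, 233, 208 and 136 CPM in LWT replicates 1 to 4 and at 212, 175, 270.4 and 275 CPM in LΔRbfox2 replicates 1 to 4. The 2 highest livers were LΔRbfox2 replicates 3 and 4 and the lowest was LWT replicate 4. The log2 fold change of 0.28 (edgeR, adjusted *P* = 0.603), with an interval from −0.20 to 0.78, was −0.015 without those 2 livers, 0.15 without LWT replicate 4, 0.17 without LΔRbfox2 replicate 3 and −0.046 after the correction for gene length and GC content.

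The 2 transporters overlapped between genotypes as well. *Abcb11* (ENSMUSG00000027048, chr2:69238282-69342616, minus strand), the export pump, was at 232, 127, 165 and 155 CPM in LWT replicates 1 to 4 and at 181, 131, 104 and 155 CPM in LΔRbfox2 replicates 1 to 4. The highest value was in LWT replicate 1, which was also the LWT liver highest in *Cyp7a1*. Its log2 fold change was −0.25 (edgeR, adjusted *P* = 0.654), with an interval from −0.77 to 0.28. It was −0.091 without LWT replicate 1, −0.16 without LΔRbfox2 replicate 3, −0.14 without LΔRbfox2 replicates 3 and 4, and −0.38 without LΔRbfox2 replicate 1. Its exons overlap those of 2 annotated transcripts on the opposite strand, over 136 bp (*Gm13613*) and 19 bp (*Gm13614*), and which gene the reads there were given to is uncertain: the alignment used a first-strand library setting, but whether the counting used the strand is not given in the sources used here. *Slc10a1* (ENSMUSG00000021135, chr12:80953183-80968705, minus strand), the uptake carrier, ranged from 269 to 347 CPM in LWT and from 252 to 362 CPM in LΔRbfox2 livers. Both genotypes covered nearly the same range. Its log2 fold change was −0.0050 (edgeR, adjusted *P* = 0.990), with an interval from −0.41 to 0.38, and was −0.20 after the correction for gene length and GC content. Its sign turned in 4 of the 8 fits with 1 liver left out, to 0.032 without LWT replicate 2, 0.051 without LWT replicate 3, 0.089 without LΔRbfox2 replicate 1 and 0.037 without LΔRbfox2 replicate 4. The log2 ratio of *Slc10a1* to *Abcb11* per exon length was 2.14 ± 0.50 in LWT and 2.37 ± 0.57 in LΔRbfox2 livers (SD, n = 4 each).

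In the FXR circuit, both genes had positive differences within the spread of the livers. *Nr1h4* (ENSMUSG00000047638, chr10:89454234-89533585, minus strand), which encodes FXR, was at 56.6, 77.2, 65.2 and 53.0 CPM in LWT replicates 1 to 4 and at 58.0, 78.1, 81.5 and 82.3 CPM in LΔRbfox2 replicates 1 to 4. Of the LΔRbfox2 livers, 3 were above every LWT liver and replicate 1 was not. For *Nr1h4* the log2 fold change was 0.25 (edgeR, adjusted *P* = 0.588), with an interval from −0.16 to 0.67. It was 0.061 after the correction for gene length and GC content and 0.085 without LΔRbfox2 replicates 3 and 4. *Nr0b2* (ENSMUSG00000037583, chr4:133553376-133556536, plus strand), which encodes SHP, was at 10.9, 14.9, 24.7 and 17.2 CPM in LWT replicates 1 to 4 and at 23.1, 14.6, 21.1 and 25.9 CPM in LΔRbfox2 replicates 1 to 4. LWT replicate 1, the LWT liver with the most *Cyp7a1*, had the least *Nr0b2* of the 8 livers, and LΔRbfox2 replicate 2, with the most *Cyp7a1*, had the least of its genotype; a relation between the 2 genes was not tested. For *Nr0b2* the log2 fold change was 0.33 (edgeR, adjusted *P* = 0.620), with an interval from −0.25 to 0.95. It was 0.13 without LWT replicate 1 and also without LΔRbfox2 replicates 3 and 4, 0.16 after the correction for gene length and GC content, and 0.57 without LWT replicate 3. Two-sided exact permutation tests of the 10 genes gave *P* values between 0.0857 and 1.

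Per exon length (RPKM, mean of the 8 livers), the levels differed over a wide range and most neighbours in the order overlapped. *Cyp8b1* was highest at 246 RPKM, followed by *Slc27a5* at 204 and *Slc10a1* at 142 RPKM. *Slc27a5* was above *Slc10a1* in every liver, and the ranges of *Cyp8b1* and *Slc27a5* overlapped. *Baat* (109 RPKM) and *Cyp27a1* (96.4 RPKM) overlapped each other, and *Cyp27a1* did not overlap *Cyp7b1* (54.0 RPKM). *Abcb11* (30.4 RPKM), *Nr1h4* (30.0 RPKM), *Cyp7a1* (18.9 RPKM) and *Nr0b2* (16.8 RPKM) formed the lower end, where each overlapped its neighbour. The order of the means differed between genotypes in 3 places: *Cyp7a1* was under *Nr0b2* in LWT (11.7 and 14.9 RPKM) and above it in LΔRbfox2 livers (26.1 and 18.7 RPKM), *Abcb11* was above *Nr1h4* in LWT (33.0 and 27.3 RPKM) and under it in LΔRbfox2 livers (27.7 and 32.6 RPKM), and *Cyp27a1* was above *Baat* in LWT (103 and 98.7 RPKM) and under it in LΔRbfox2 livers (89.7 and 120.02 RPKM). Over all 8 livers, the mean of *Nr0b2* was at or above 88.3% of the genes tested.

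**Figure D3:**
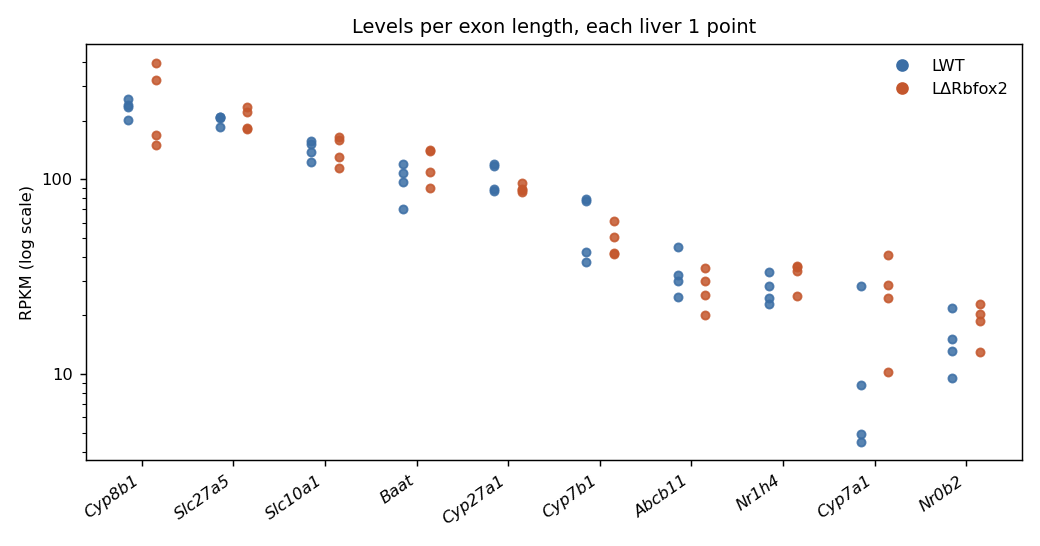
Levels of the 10 genes per exon length (RPKM, logarithmic axis), ordered by the mean of 8 livers, with LWT livers in blue and LΔRbfox2 livers in orange, 1 point per liver. *Cyp8b1* leads at a mean of 246 RPKM, and *Cyp7a1* spans 4.51 to 40.7 RPKM.

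The 10 genes did not rise and fall as 1 group across the livers. Their summed level was 2319.8, 2059, 2074 and 1968 CPM in LWT replicates 1 to 4 and 1991, 2447, 2429 and 1922 CPM in LΔRbfox2 replicates 1 to 4. LWT replicate 1 had the highest value of the 8 livers in 3 genes (*Cyp27a1*, *Cyp7b1* and *Abcb11*) and the lowest in 1 (*Nr0b2*). LΔRbfox2 replicate 2 was highest in 3 (*Cyp7a1*, *Cyp8b1* and *Slc10a1*), and LΔRbfox2 replicate 4 was highest in 3 (*Nr0b2*, *Nr1h4* and *Baat*) and lowest in 2 (*Cyp8b1* and *Slc27a5*). LWT replicate 4 was lowest in 3 (*Cyp7a1*, *Nr1h4* and *Baat*). In the map of deviations, *Cyp7a1* stands out by its range, from −1.65 to 1.52 around its mean on the log2 scale, while *Slc27a5* stays between −0.17 and 0.21.

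**Figure D4:**
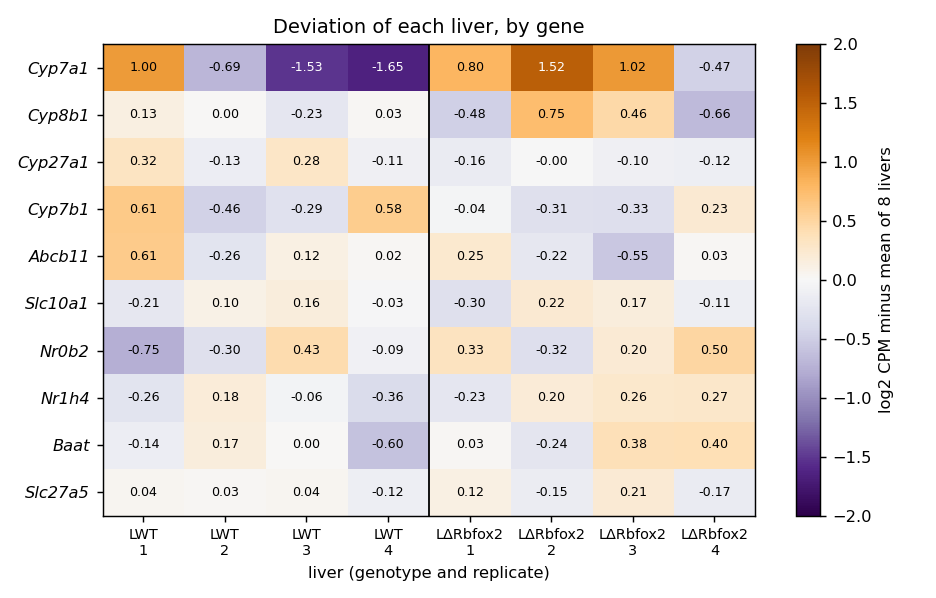
Deviation of each liver from the mean of all 8 livers in log2 CPM (colour and printed value), for the 10 genes in rows and the livers in columns; a line separates the genotypes. *Cyp7a1* is below its mean in LWT replicates 2, 3 and 4 and in LΔRbfox2 replicate 4, and above it in LWT replicate 1 and LΔRbfox2 replicates 1, 2 and 3.

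The other genes of bile acid handling were read in the same fit, and a difference from the 10 was not tested. Of 38 genes in 6 lists, 33 could be tested and 0 reached an adjusted *P* of at most 0.05 in edgeR. At an unadjusted *P* under 0.05 there were 2 (6.06%), both lower in LΔRbfox2 livers, where the share of all genes was 9.79% in either direction and 1.83% for lower. In all, 12 had a positive and 21 a negative log2 fold change, with a median of −0.063, beside −0.015 over all genes. The 2 were *Abcg8*, which with *Abcg5* exports cholesterol into bile, and *Nr1i2*, which encodes the xenobiotic and bile acid receptor PXR. *Abcg8* was at 58.2, 35.1, 44.3 and 69.2 CPM in LWT replicates 1 to 4 and at 40.3, 35.3, 32.3 and 34.96 CPM in LΔRbfox2 replicates 1 to 4. The genotypes overlapped, and the log2 fold change was −0.53 (edgeR, unadjusted *P* = 0.0325, adjusted *P* = 0.504). In edgeR the unadjusted *P* of *Abcg8* was 0.133 without LΔRbfox2 replicates 3 and 4 (log2 fold change −0.46). It was 0.115 without LWT replicate 4 (−0.36) and 0.00606 without LWT replicate 2 (−0.67). *Nr1i2* was at 52.8, 49.7, 58.7 and 62.7 CPM in LWT and at 43.6, 49.1, 42.8 and 40.1 CPM in LΔRbfox2 livers, in the same order. It was the 1 gene of the 33 whose genotypes did not overlap (3.03%, beside 2.28% of all genes), with a log2 fold change of −0.35 (edgeR, unadjusted *P* = 0.0396, adjusted *P* = 0.504). In edgeR its unadjusted *P* was 0.185 without LΔRbfox2 replicates 3 and 4 and 0.116 without LWT replicate 4 (−0.29 in both). Without LΔRbfox2 replicate 2, where 3475 of 14005 genes were under 0.05, the higher *Akr1c6*, *Cyp2c70* and *Slco1b2* were too (0.0121, 0.0163 and 0.0447). In that fit the lower *Acox2*, *Cyp46a1*, *Abcc2*, *Abcc3*, *Nr1i2* and *Mafg* lay between 0.00567 and 0.0459, and *Abcg8* at 0.0519.

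By role, the 10 classical and side-chain enzymes divided into 6 positive and 4 negative log2 fold changes with a median of 0.021, which turned to 4 positive and 6 negative with upper-quartile factors, without a filter on low counts and after the length and GC correction, and to 2 positive and 8 negative without LΔRbfox2 replicates 3 and 4. The most abundant gene of this list in CPM was *Scp2*, the peroxisomal thiolase of side-chain shortening. The smallest unadjusted *P* in this list belonged to *Acox2*, the peroxisomal oxidase (log2 fold change −0.40, adjusted *P* = 0.511 from edgeR), and *Akr1c6*, a hydroxysteroid dehydrogenase (0.59, adjusted *P* = 0.567 from edgeR). *Akr1c6* was at 545 and 252 CPM in LΔRbfox2 replicates 1 and 2 and at 760.3 and 1140.0 CPM in replicates 3 and 4, and its log2 fold change was 0.22 without replicate 4, 0.096 after the length and GC correction and −0.20 without both. The alternative pathway and the mouse-specific hydroxylases had 1 positive and 3 negative of 4 tested, with a median of −0.044, and 0 positive after the length and GC correction. The median of this list turned to 0.095 without LWT replicate 3 and to 0.046 without LΔRbfox2 replicate 2. It stayed negative with any other 1 liver left out. *Cyp46a1*, the cholesterol 24-hydroxylase, had a log2 fold change of −0.59 (adjusted *P* = 0.511 from edgeR) and *Cyp2c70*, which makes muricholic acids, of 0.52 (adjusted *P* = 0.639 from edgeR), which was −0.0046 after the length and GC correction. *Cyp2c70* was 0.26 without LΔRbfox2 replicate 1, 0.24 without LΔRbfox2 replicate 4 and 0.84 without LΔRbfox2 replicate 2. *Cyp46a1* was −0.35 without LΔRbfox2 replicates 3 and 4 and −0.89 without LΔRbfox2 replicate 2. Canalicular transporters had 1 positive and 5 negative of 6, with a median of −0.15, but 3 and 3 without LΔRbfox2 replicates 3 and 4 and 2 and 4 after the length and GC correction. Beside *Abcg8* the smallest *P* was that of *Abcc2*, which exports conjugates (−0.55, adjusted *P* = 0.527 from edgeR, and −0.27 without LΔRbfox2 replicates 3 and 4). *Abcc2* was highest in LWT replicates 1 and 4, at 435 and 424 CPM, the LWT livers that the first principal component sets apart, as *Abcg8* was; the part of that split in these values was not tested.

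Basolateral uptake carriers were 3 positive of 3, with a median of 0.26, but 1 positive and 2 negative without LΔRbfox2 replicates 3 and 4 and after the length and GC correction. *Slco1b2* had a log2 fold change of 0.44 (adjusted *P* = 0.548 from edgeR) and *Slco1a1* of 0.26 (adjusted *P* = 0.704 from edgeR), and in both LΔRbfox2 replicate 4 was highest, at 1392 and 365 CPM. Without LΔRbfox2 replicates 3 and 4 both signs turned, to −0.096 for *Slco1b2* and −0.22 for *Slco1a1*. *Slco1a1* was also −0.16 without LΔRbfox2 replicate 4 alone and −0.022 after the length and GC correction, and *Slco1b2* was 0.23 without replicate 4 and 0.16 after that correction. Basolateral efflux was represented by 2 tested genes, both negative, *Abcc3* (−0.23, adjusted *P* = 0.712 from edgeR) and *Abcc4* (−0.23, adjusted *P* = 0.751 from edgeR). Without LΔRbfox2 replicates 3 and 4, *Abcc3* turned to 0.019. With 1 liver left out, *Abcc3* ran from −0.56 (without LΔRbfox2 replicate 2) to −0.096 (without LWT replicate 4). *Abcc4* ran from −0.47 (without LΔRbfox2 replicate 1) to −0.030 (without LΔRbfox2 replicate 4). No read of *Slc51a* was counted; a total of 3 counts, the limit set by counting error alone, would be 0.0468 to 0.0929 CPM depending on the liver. Nuclear receptors and FGF15/19 signalling had 1 positive and 7 negative of 8, with a median of −0.28, but 3 and 5 without LΔRbfox2 replicates 3 and 4, 2 and 6 after the length and GC correction, and 0 and 8 with upper-quartile factors. Beside *Nr1i2*, the smallest *P* was that of *Mafg*, a transcriptional repressor induced by FXR (−0.51, adjusted *P* = 0.601 from edgeR), at 69.99, 24.5, 32.1 and 73.8 CPM in LWT and 29.8, 57.1, 27.9 and 25.4 CPM in LΔRbfox2 livers. Its high livers, LWT replicates 1 and 4 and LΔRbfox2 replicate 2, are those on one side of the first principal component, and its log2 fold change was −0.26 without LWT replicate 4 and −0.85 without LΔRbfox2 replicate 2. *Fgf15*, the intestinal hormone that represses *Cyp7a1*, was likewise at 0. With each of the 8 livers left out in turn, the number of positive genes ran from 2 to 7 of 10 in the classical and side-chain list, from 1 to 2 of 4 in the alternative list, from 0 to 2 of 6 in the canalicular list, from 2 to 3 of 3 in the uptake list and from 0 to 2 of 8 in the receptor list, and stayed at 0 of 2 in the efflux list.

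**Figure D5:**
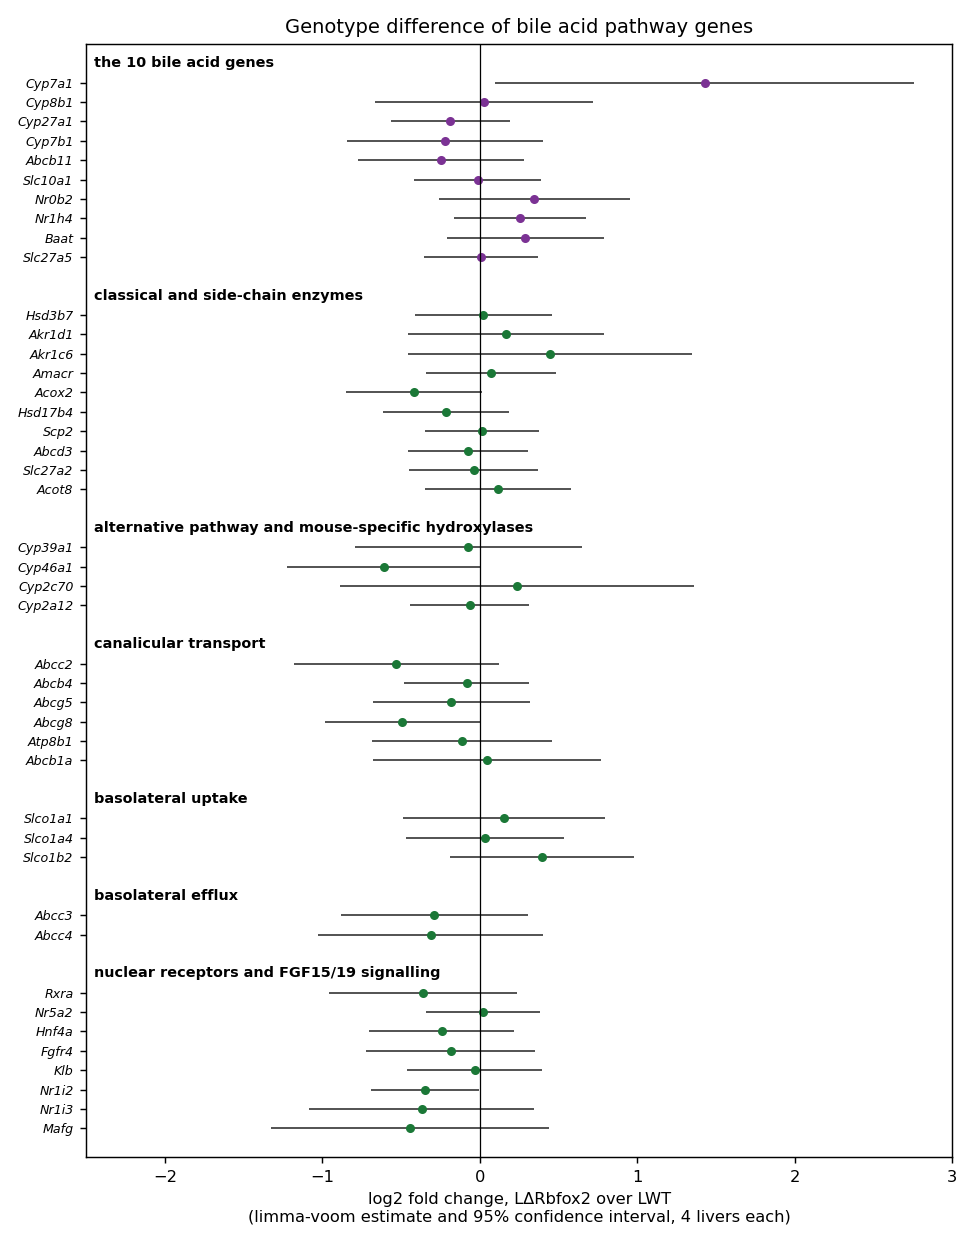
Log2 fold change (LΔRbfox2 over LWT, horizontal axis) of the 10 bile acid genes (purple) and the 33 tested genes of the 6 other lists (green), as the limma-voom estimate with its 95% confidence interval from 4 livers each. The interval of *Cyp7a1* runs from 0.10 to 2.75 and is the 1 of the 10 that excludes 0; the other 9 span 0 and lie between −0.84 and 0.95.

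Clock genes were measured beside *Cyp7a1* because its transcription follows the daily cycle. Of 16 clock genes, all tested, 15 had a negative log2 fold change, with a median of −0.44, and 15 of 16 also without LΔRbfox2 replicates 3 and 4. Beside 9.79% of all genes, 0 of the 16 were at an unadjusted *P* under 0.05 in the main edgeR fit. Their summed level was 359.7, 338, 343 and 595 CPM in LWT replicates 1 to 4 and 333, 349.6, 356 and 324 CPM in LΔRbfox2 replicates 1 to 4, with *Tef* the most abundant. LWT replicate 4, the liver lowest in *Cyp7a1*, had the highest sum and the highest level of the 8 livers in 10 of the 16, among them *Tef*, *Dbp*, *Nr1d1* and the *Per* genes. Other clock genes went the other way in this liver, with *Nfil3* at 9.21 CPM the lowest of the 8 livers, and *Arntl* at 2.10 and *Clock* at 25.7 CPM the lowest of the LWT livers. Without it, 12 of the 16 were negative, with a median of −0.26. *Per1* had a log2 fold change of −0.72 and *Per3* of −1.32 (adjusted *P* = 0.515 from edgeR for both), and *Per3* was at 20.3 CPM in LWT replicate 4 and between 1.30 and 7.18 CPM in the other 7 livers. Without LWT replicate 4 these log2 fold changes were −0.31 for *Per1* and −0.35 for *Per3*. The unadjusted *P* of *Per1* and *Per3* was 0.0457 and 0.0287 in the DESeq2 test. In edgeR it was 0.0325 and 0.0271 without a filter on low counts, and under 0.05 for both without LWT replicate 2 or 3. The part of the clock genes in the *Cyp7a1* values was not tested.

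Markers of the cells in the tissue were read in the same fit. All 6 hepatocyte markers were tested, 3 positive and 3 negative, and their sum, led by *Alb*, lay between 42827 and 62922 CPM in LWT and between 47695 and 68225 CPM in LΔRbfox2 livers. Of 8 cholangiocyte markers 5 were tested, all 5 with positive log2 fold changes (median 0.70), and their sum, led by *Spp1*, was 15.0, 26.9, 19.8 and 19.2 CPM in LWT replicates 1 to 4 and 21.97, 16.9, 62.9 and 32.3 CPM in LΔRbfox2 replicates 1 to 4. LΔRbfox2 replicate 3 stood apart in this sum, and without LΔRbfox2 replicates 3 and 4 the 5 markers were 1 positive and 4 negative, with a median of −0.059. With each of the 8 livers left out in turn, 4 or 5 of these 5 were positive, with medians from 0.21 (without LΔRbfox2 replicate 3) to 1.06 (without LWT replicate 2). Of 6 Kupffer cell markers 4 were negative and 2 positive, with a sum, led by *Clec4f*, of 66.0, 57.5, 97.3 and 55.5 CPM in LWT and 65.9, 31.1, 57.7 and 53.8 CPM in LΔRbfox2 livers. The Kupffer cell list had no stable direction: it was 6 negative without LΔRbfox2 replicates 3 and 4, 4 positive and 2 negative without LWT replicate 3 (median 0.075), and 3 and 3 without LΔRbfox2 replicate 2 (median 0.035). *Clec4f* alone was at an unadjusted *P* under 0.05 (log2 fold change −0.73, adjusted *P* = 0.504 from edgeR), and its genotypes did not overlap. Of all genes tested, 9.79% were at this level in edgeR, 1.83% lower in LΔRbfox2 livers, and 2.28% did not overlap. Sinusoidal endothelial markers were 1 positive and 4 negative of 5, and stellate cell markers 2 positive and 3 negative of 5. Their sums, led by *Clec4g* and *Dcn*, lay between 47.3 and 72.8 and between 58.9 and 119 CPM over the 8 livers. Of 3 ileal markers *Fabp6* and *Fgf15* were at 0 counts in every liver and *Slc10a2* was between 2.11 and 8.33 CPM. Of 4 pancreas markers *Ctrb1* and *Cpa1* were at 0 counts and *Cela1* led, with a sum of at most 9.88 CPM. Between settings, the hepatocyte list had 3 or 4 positive of 6, the sinusoidal list 0 to 2 of 5, and the stellate list 1 to 3 of 5, with 3 positive and a median of 0.031 without LΔRbfox2 replicates 3 and 4. The part of these markers in the bile acid gene values was not tested.

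The genes whose log2 CPM over the 8 livers was most like that of *Cyp7a1* were *Xlr3c* (Pearson *r* = 0.94, Spearman rho = 0.76), *Slc17a4* (0.93 and 0.95), *Lmo2* (0.93 and 0.90), *Gm17518* (0.90 and 0.95) and *Bcl6b* (0.89 and 0.79). These were chosen as the highest of all genes tested, so the values describe these 8 livers, which share their genotype groups, and carry no test. Without LWT replicates 3 and 4, the livers farthest from the median of *Cyp7a1*, *r* over the other 6 was 0.83, 0.91, 0.93, 0.83 and 0.71. *Xlr3c* and *Gm17518* were at or under 0.653 CPM in every liver, while *Slc17a4*, a phosphate transporter family member, was between 4.90 and 9.32 CPM. Of the other 9 bile acid genes *Cyp8b1* was most like *Cyp7a1* over the 8 livers, at *r* = 0.49, and *Nr0b2* least, at *r* = −0.34. These *r* pool both genotypes, so they mix the genotype difference with the relation between livers of a genotype. Within LΔRbfox2 livers the order of *Nr0b2* was the reverse of that of *Cyp7a1*. In LWT livers it was the reverse save for replicates 3 and 4. A relation within genotypes was not tested.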

How the data were processed

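Whole-liver poly(A) RNA was sequenced by the authors as 1 library per liver from 4 LWT and 4 LΔRbfox2 mice. The authors aligned reads to GRCm38 with TopHat2 2.0.11 and deposited whole-number counts per gene from featureCounts. The submitters' processing notes also name CASAVA 1.8.4. The featureCounts version, strand and multi-mapping settings are not given in the sources used here. All columns were matched to livers by the sample labels, and 0 were left unmatched. GENCODE M21 on GRCm38 gave symbols for 45229 of 46078 identifiers, and exon lengths.

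The counts went through edgeR 4.0.16 (R 4.3.3) with filterByExpr (minimum count 10, total 15), TMM factors, glmQLFit and glmQLFTest. Genotype was the sole model term, and *P* was adjusted by Benjamini-Hochberg over the 13856 genes tested. Log2 CPM used a prior count of 2. Standard errors and intervals came from limma 3.58.1 (voom), and DESeq2 1.42.0 was an alternative. Exact two-sided permutation tests covered all 70 assignments of the livers. No 2 libraries of the same genotype were copies (smallest chi-square per degree of freedom 97.8).

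The genes and lists were chosen with earlier results of these data known. Named genes are the 10 members, of each pathway and clock list the 2 with the smallest unadjusted *P* and any under 0.05 (at most 6), the 5 most like *Cyp7a1*, and *Rbfox2*; the markers stood in lists of their own, and *Clec4f*, *Scp2*, *Tef*, *Dbp*, *Nr1d1*, *Nfil3*, *Arntl*, *Clock*, other *Per* genes and genes at 0 counts were picked once their values were known. Methods were tested on simulated data. Tables used Python 3.11.15, numpy 2.4.6, pandas 2.3.3, scipy 1.17.1 and matplotlib 3.10.9.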

Additional observations from a re-analysis of the deposited data

Results flagged for a closer look

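In 4 of the 50 sets of 4 livers examined (2 genotypes of each member, *Rbfox2* and the named list genes), 1 liver was far from the other 3 of its genotype, measured as its gap to the nearest relative to the whole range. Chance gives about 1 in 20, or 2.5 of 50. *Slc27a5* was at 454 CPM in LWT replicate 4, below the other 3 at 504 to 509 CPM. *Slco1a1* was at 365 CPM in LΔRbfox2 replicate 4, above the other 3 at 138 to 163 CPM. *Abcc3* was at 227 CPM in LΔRbfox2 replicate 2, above the others at 105 to 121 CPM, and *Mafg* at 57.1 CPM in the same liver, above the others at 25.4 to 29.8 CPM. The causes were not tested.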

How the results depend on the processing

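Of the 80 log2 fold changes of the 10 genes under other settings, 74 kept their sign and their side of the adjusted threshold and 6 turned sign; with each liver left out, 72 of 80 kept both and 8 turned. *Slc27a5* was −0.027 with upper-quartile factors, −0.022 without a filter on low counts, −0.041 after the length and GC correction and −0.030 without LΔRbfox2 replicates 3 and 4, and *Baat* was −0.046 and −0.015 under the last 2 of these. With a liver left out, *Slc27a5* ranged from −0.090 to 0.072, *Slc10a1* from −0.095 to 0.089 and *Cyp8b1* from −0.13 to 0.34. Of the 14 named genes of the other lists, 6 of 112 values turned under other settings, *Slco1a1* (−0.022) and *Cyp2c70* (−0.0046) after the length and GC correction and *Slco1a1* (−0.22), *Slco1b2* (−0.096), *Akr1c6* (−0.20) and *Abcc3* (0.019) without LΔRbfox2 replicates 3 and 4, and 1 of 112 with a liver left out, *Slco1a1* (−0.16 to 0.41). DESeq2 called 10 genes of the whole table, the other settings 0, and 0 of the bile acid genes were called in any of them. The number of bile acid genes at an unadjusted *P* under 0.05 was 0 in the main test. It was 1 (*Cyp7a1*) in the DESeq2 test, in limma-voom and without a filter on low counts. Of all genes, 1565 of 13844, 979 of 13856 and 1844 of 23766 were at this level in these fits, in the same order. With a liver left out the number ranged from 0 to 1. It was 1 (*Cyp7a1*) without LWT replicate 1, beside 608 of all 14106 genes, and without LΔRbfox2 replicate 4, beside 404 of 14307. The log2 fold change of *Cyp7a1* ranged from 0.97 to 1.46 over the planned settings and from 0.87 (without LΔRbfox2 replicate 2) to 2.09 (without LWT replicate 1) with a liver left out. The cause of these shifts was not tested. With the replicate number as a block (replicate block), the number at an unadjusted *P* under 0.05 was 1 and the number called 0. The 1 was *Cyp7a1* (edgeR, unadjusted *P* = 0.0145), beside 335 of all 13856 genes at this level. Same-numbered livers are different animals, and their deviations correlated at 0.13, −0.61, 0.12 and −0.51. Whether they also shared a processing step is not given in the sources used here and was not tested. Depth does not limit these genes, with at least 416 counts each per liver, but 4 livers a genotype limit the size of difference that can be seen.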
